A study of Mus musculus with 6 samples.

Results

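The data describe 28 mouse genes of cholesterol and fatty acid synthesis, taken by symbol from a list of known targets of the sterol regulatory element binding proteins (SREBPs). All 28 were among the 14992 genes of the deposited table, and all 28 passed the filter on low counts (12806 genes passed in all). Messenger RNA was sequenced from bone marrow of irradiated C57/BL6 mice that carried transplanted whole marrow of Dnmt3a knockout donors. Recipients were given vehicle (3 libraries, numbered 1, 2 and 3) or, at 75 mg/kg, a drug against PI3K alpha and beta, lipid kinases that pass growth factor signals to AKT (3 libraries, numbered 1, 3 and 5), each for 21 days. The labels call the transplanted cells leukemic, and below the values of a gene always follow the order of these library numbers. Both groups carry the Dnmt3a loss, so no library shows marrow with intact Dnmt3a. The age and sex of the animals, the share of donor cells and whether each library is its own mouse are not given in the sources used here, so a p-value here reflects only how these libraries vary, which may be technical.

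SREBPs are transcription factors held in the membrane of the endoplasmic reticulum. When membrane sterol is low, the escort Scap carries them to the Golgi, where proteases free the part that enters the nucleus and turns on genes of sterol and fatty acid synthesis. Insulin and growth factor signals through PI3K, AKT and mTOR are known to favour that release in other tissues, and dividing blood cells need new sterol and fatty acid for membrane.

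Total counts ran from 28198638 to 59384880 per library, and Dnmt3a stood at 15.4 to 24.9 CPM (read counts scaled to library size) in all 6, which checks no label because both groups are knockout. The marrow was a mixture of cell types, and the markers of some of them moved with the groups. Summed over 12 macrophage markers, the level was 7473, 2283 and 2689 CPM with vehicle and 716, 999.7 and 886 CPM with the inhibitor. The sum of 8 neutrophil markers was 36610 to 58630 CPM with vehicle and 96530 to 112900 CPM with the inhibitor, and that of 7 B lymphoid markers 35.4 to 74.0 against 100.4 to 312.6 CPM. The 6 markers of dividing cells summed to 3139 to 3150 CPM with vehicle and 2944 to 3112 CPM with the inhibitor. Vehicle 1 was far above the other vehicles on the macrophage markers and on 6 erythroid markers, with 3885 CPM against 1178 and 1341 CPM. The erythroid sum was 701, 1385 and 1553 CPM with the inhibitor. That of 6 T and NK markers was 96.5 to 123.8 CPM with vehicle and 95.7 to 111.3 CPM with the inhibitor. On both of these sums the groups overlapped. In such a mixture fewer cells of a type and less RNA per cell cannot be told apart, and the part of these cell types in the results below was not tested.

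No sterol or fatty acid gene passed the test on its own, and most had lower values with the inhibitor. Of the 28 genes, 25 had a negative log2 fold change (inhibitor against vehicle) and 3 a positive one, with a median of -0.34, where the median of all 12806 tested genes was 0.00093 and 6398 were negative. In edgeR's quasi-likelihood test with Benjamini-Hochberg adjustment over all 12806 genes, 0 members were lower and 0 higher, beside 1.19% and 0.633% of all tested genes. Before adjustment 13 members were lower and 0 higher at p under 0.05, beside 11.9% and 9.68% of all genes in the test. In 15 of the 28 every inhibitor library lay below every vehicle library, and in 0 every inhibitor library lay above, beside 16.2% and 14.4% of all tested genes. DESeq2 called 4 members lower (Insig1, Fdft1, Sqle and Dhcr7) and 0 higher, beside 6.54% and 4.29% of all genes it adjusted. With limma voom and sample quality weights, the calls were 15 lower and 0 higher, beside 11.6% and 10.7% of all genes. The weights were 0.161 for vehicle 1, 4.4 for inhibitor 3 and 0.633 to 1.61 for the other libraries. By the authors' deposited table, members lower were 4 (those of DESeq2) and members higher 0 at its adjusted p under 0.05, beside 6.57% and 4.24% of its genes with an adjusted p.

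**Figure D1:**
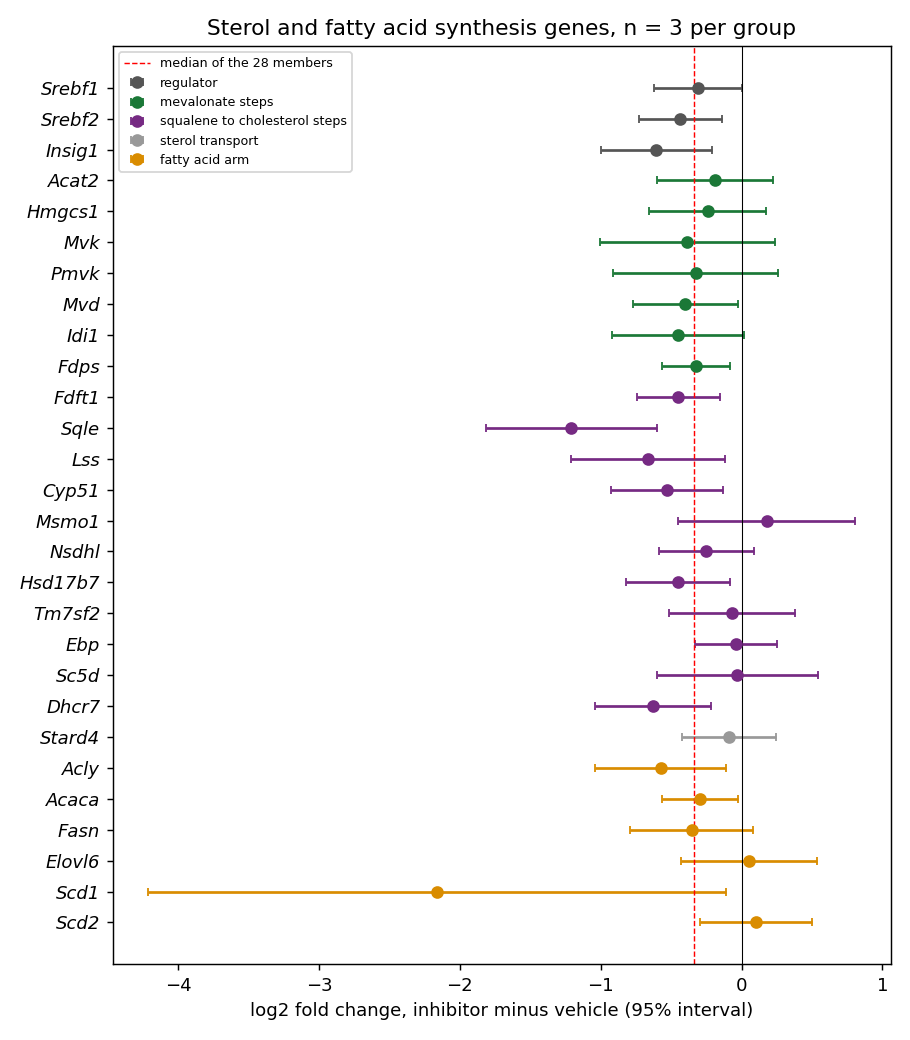
Log2 fold change (inhibitor against vehicle, horizontal axis) of each of the 28 genes with its 95% interval from edgeR, n = 3 per group, coloured by role. The dashed line is the median of the 28 genes at -0.34, and 25 points lie left of 0.

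The sterol and fatty acid arms had like medians and unlike spreads. The 18 enzymes of the sterol arm had a median of -0.36 (17 negative, 1 positive), with values from -1.21 to 0.18, and in 10 of them the groups did not overlap. The 6 genes of the fatty acid arm had a median of -0.32 (4 negative, 2 positive), with values from -2.16 to 0.10, and in 2 of them the groups did not overlap. Of all tested genes, 16.2% were lower with the inhibitor without overlap and 14.4% higher without overlap. Within the sterol arm the 7 mevalonate genes had a median of -0.33 and the 11 genes from squalene to cholesterol one of -0.45. The difference between the arms was not tested, since the genes are not replicates of a condition.

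Library by library, the arms were described by the median over genes of log2(CPM + 1) minus the gene's own mean over the 6 libraries. For the sterol arm this deviation was 0.10, 0.15 and 0.19 with vehicle and -0.19, -0.14 and -0.13 with the inhibitor. The fatty acid arm had deviations of 0.14, 0.10 and 0.18 in vehicle and of -0.14, -0.22 and -0.0049 in inhibitor libraries. On both arms the groups did not overlap, and inhibitor 5 lay nearest to the vehicles. Inhibitor 1 had the lowest value of all 6 libraries in 13 of the 28 genes. The highest value was in vehicle 1 for 11 genes, in vehicle 2 for 8, in vehicle 3 for 8 and in inhibitor 1 for 1 gene, Msmo1.

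**Figure D2:**
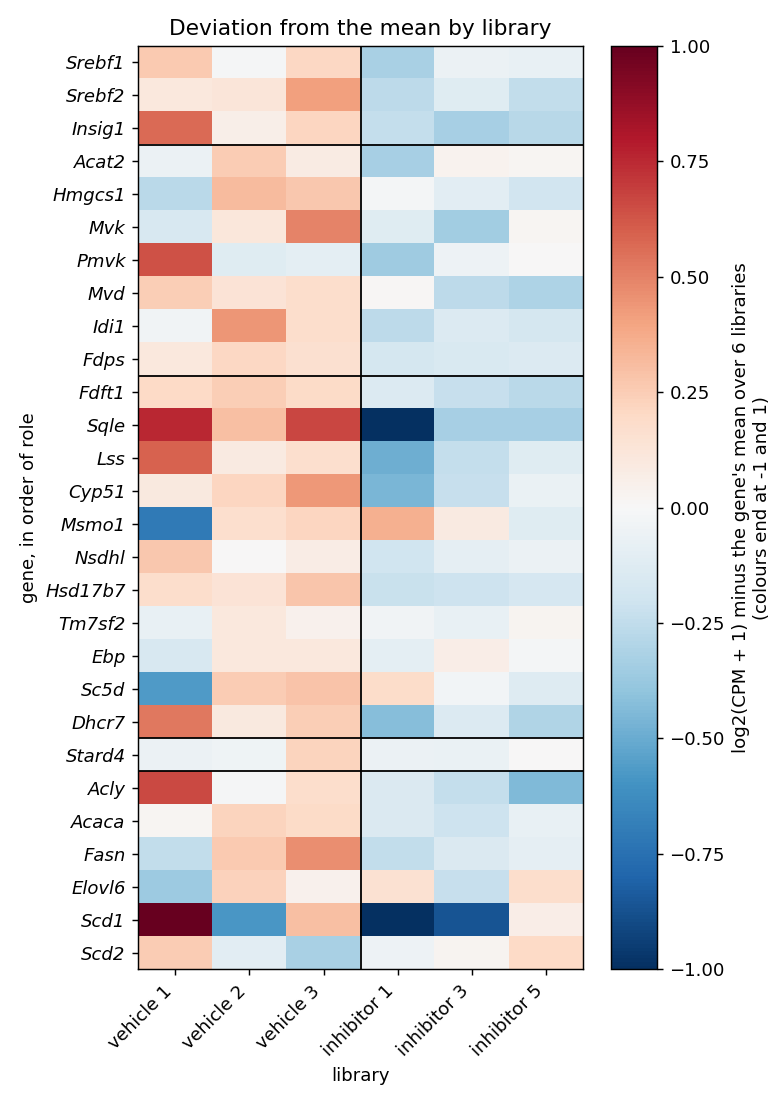
Colour gives log2(CPM + 1) minus the mean of the gene over the 6 libraries, with genes in rows ordered by role (lines separate roles) and libraries in columns. Most rows are red in the 3 vehicle columns and blue in the 3 inhibitor columns, while Msmo1 and Sc5d are lowest in vehicle 1.

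Promoter letters of the genes were read to show what the members share outside these measurements, since SREBPs bind sterol regulatory elements beside NF-Y and Sp1. RefSeq sequences (GRCm38.p6, from 250 bases before to 50 after a start site) were read for 22 of the 28 genes, as 27 promoters. None was read for Fdps, Fdft1, Sqle, Scd1, Scd2 and Stard4, so their promoters are not described here. On both strands, the letters TCACNCCAC of a sterol regulatory element were in 1 of the 27, that of Hmgcs1, and in 1.24% of all 32851 promoters. Its core CACNCCAC, which lies within those letters, was in 3 of 27 (Hmgcs1, Insig1 and Acat2) and in 6.24% of all. The NF-Y box CCAAT was in 20 of 27 and in 37.4% of all, the GC box GGGCGG read by Sp1 in 20 of 27 and in 35.7% of all, and the E-box CACGTG in 4 of 27 and in 7.15% of all. A match is a description of letters in this window and not a binding site.

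The 3 promoters with the core and that of Hsd17b7, which holds 3 NF-Y boxes and no core, are printed 5′ to 3′ on the strand of the gene, with capitals on each core or NF-Y box of either strand. They lie at chr13:119690101-119690400 (plus strand, Hmgcs1), chr5:28071162-28071461 (plus strand, Insig1), chr17:12960676-12960975 (minus strand, Acat2) and chr1:169969156-169969455 (minus strand, Hsd17b7). The core begins 136 bases before the start site in Hmgcs1, 9 before it on the other strand in Insig1, and 181 before it and 53 before it (the latter on the other strand) in Acat2. These start sites are those of the RefSeq windows and differ from the gene starts given below for Hmgcs1 and Insig1, which are from GENCODE.
Hmgcs1: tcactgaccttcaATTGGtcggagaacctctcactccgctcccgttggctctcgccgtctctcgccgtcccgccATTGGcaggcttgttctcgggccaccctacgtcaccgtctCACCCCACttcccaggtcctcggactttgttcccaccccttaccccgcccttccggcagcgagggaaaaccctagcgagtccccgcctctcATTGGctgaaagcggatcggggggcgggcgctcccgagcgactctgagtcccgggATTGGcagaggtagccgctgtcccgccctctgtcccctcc
Insig1: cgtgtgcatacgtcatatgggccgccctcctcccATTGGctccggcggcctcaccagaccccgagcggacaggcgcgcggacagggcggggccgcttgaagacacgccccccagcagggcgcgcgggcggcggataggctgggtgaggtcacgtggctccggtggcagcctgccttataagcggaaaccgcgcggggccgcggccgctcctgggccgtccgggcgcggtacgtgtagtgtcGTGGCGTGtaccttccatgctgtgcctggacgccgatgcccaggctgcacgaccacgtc
Acat2: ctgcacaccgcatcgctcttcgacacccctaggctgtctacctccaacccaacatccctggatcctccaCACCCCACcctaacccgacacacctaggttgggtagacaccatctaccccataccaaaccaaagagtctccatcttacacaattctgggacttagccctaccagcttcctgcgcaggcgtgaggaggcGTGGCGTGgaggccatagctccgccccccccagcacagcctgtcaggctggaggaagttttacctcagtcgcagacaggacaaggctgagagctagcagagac
Hsd17b7: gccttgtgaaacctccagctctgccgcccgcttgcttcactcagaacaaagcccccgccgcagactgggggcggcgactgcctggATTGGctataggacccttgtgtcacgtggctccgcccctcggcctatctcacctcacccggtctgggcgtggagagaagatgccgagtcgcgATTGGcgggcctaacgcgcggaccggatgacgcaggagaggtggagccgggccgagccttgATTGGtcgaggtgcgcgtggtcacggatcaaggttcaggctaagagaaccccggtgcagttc
Of these 4 genes, Insig1 and Hsd17b7 had groups that did not overlap, while the groups of Hmgcs1 and Acat2 overlapped. The core was thus found in genes with and without overlap. Hsd17b7 is 1 example without the core, where Mvk holds 5 NF-Y boxes, Nsdhl 4, and Msmo1 and Fasn 3 each. Groups overlapped in Mvk, Msmo1 and Fasn and not in Nsdhl.

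The 3 regulators among the members, Srebf1, Srebf2 and Insig1, were lower in every inhibitor library than in any vehicle library, without passing the test. Srebf2 (chromosome 15, 82147181 to 82205379, GRCm38) encodes the SREBP best known for sterol genes. It stood at 97.7, 98.6 and 120.8 CPM with vehicle and 75.3, 83.1 and 76.5 CPM with the inhibitor. Its log2 fold change was -0.43 ± 0.13 (standard error, 3 libraries a group, edgeR adjusted p = 0.108). Srebf1, whose products are best known for fatty acid genes, was at 59.7, 49.2 and 57.4 CPM with vehicle and 39.5, 47.6 and 47.2 CPM with the inhibitor. The gap between vehicle 2 and inhibitor 3 was small, and the log2 fold change was -0.31 ± 0.13 (edgeR adjusted p = 0.237). Counts over the whole gene do not separate the transcripts of Srebf1 that start at different promoters, and its exons overlap Rai1 on the opposite strand over 109 bases. Insig1 (chromosome 5, 28071363 to 28078662), which holds Scap and the SREBPs in the endoplasmic reticulum and is itself a target, stood at 31.5, 21.8 and 24.4 CPM with vehicle and at 17.6, 16.4 and 17.0 CPM with the inhibitor. The inhibitor values lay close together (SD 0.594 CPM, n = 3) and below the lowest vehicle, and the log2 fold change was -0.61 ± 0.17 (edgeR adjusted p = 0.0995). Vehicle 1 was the highest, and the value was -0.44 without it (adjusted p = 0.0683).

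The mevalonate steps turn acetyl-CoA into farnesyl diphosphate, the building block of sterols and of the lipid anchors of small GTPases. All 7 genes had negative log2 fold changes, from -0.45 to -0.19, and 0 passed the edgeR test. In that test 2 were lower at an unadjusted p under 0.05 (Mvd and Fdps) and 0 higher, beside 11.9% and 9.68% of all genes. DESeq2 gave 0 lower calls among the 7, against a share of 6.54% over the genes it adjusted. Voom gave 5 lower calls, against a share of 11.6%. Hmgcs1 (chromosome 13, 119690379 to 119708260), the HMG-CoA synthase, was at 32.0, 48.5 and 47.0 CPM with vehicle and 38.2, 35.9 and 33.9 CPM with the inhibitor. Vehicle 1 lay below every inhibitor library and the other vehicles above all of them. The log2 fold change of Hmgcs1 was -0.24 ± 0.18 (edgeR adjusted p = 0.464) over all libraries and -0.41 without vehicle 1 (adjusted p = 0.0615). It was -0.13 without vehicle 2 (adjusted p = 0.726) and -0.16 without vehicle 3 (adjusted p = 0.693). Acat2, the thiolase of the first step, was at 13.8, 17.4 and 15.4 CPM with vehicle and 11.3, 14.8 and 14.7 CPM with the inhibitor. The groups of Acat2 overlapped (log2 fold change -0.19 ± 0.18, -0.10 without vehicle 2 and -0.066 without inhibitor 1), and its counts are uncertain where reads also fit its close copy Acat3.

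Of the kinases and the decarboxylase that follow, Mvk had a log2 fold change of -0.38 ± 0.26, Pmvk -0.33 ± 0.25 and Mvd -0.40 ± 0.16. Pmvk rested on vehicle 1, at 27.5 CPM against 15.9 and 16.1 CPM in the other vehicles and 13.4, 16.7 and 17.4 CPM with the inhibitor, and its value was -0.017 without vehicle 1 and -0.21 without inhibitor 1. Mvk was at 4.16 to 7.14 CPM with vehicle and 3.54 to 4.84 CPM with the inhibitor, with overlap, and its value was -0.15 without vehicle 3, the highest library. Mvd was at 13.3 to 14.4 CPM with vehicle and 9.48 to 12.1 CPM with the inhibitor, with no overlap. Idi1, the isopentenyl diphosphate isomerase, did not overlap between the groups, at 6.61, 9.58 and 7.81 CPM with vehicle and 5.53, 6.10 and 5.92 CPM with the inhibitor (log2 fold change -0.45 ± 0.20, edgeR adjusted p = 0.243). Fdps, the farnesyl diphosphate synthase, had close replicates and no overlap: 42.2, 45.2 and 43.7 CPM with vehicle against 34.4, 35.0 and 35.4 CPM with the inhibitor. Its log2 fold change was -0.32 ± 0.10 (edgeR adjusted p = 0.133). The exons of Fdps overlap another annotated gene on the same strand over 1124 bases.

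From squalene onward the largest difference of the sterol arm was in Sqle (chromosome 15, 59315077 to 59331192), the squalene epoxidase and a rate-limiting step of the pathway. It stood at 24.7, 17.7 and 23.2 CPM with vehicle and 6.28, 11.1 and 11.1 CPM with the inhibitor. Each inhibitor library was well below the lowest vehicle, and the group means were 21.9 ± 3.67 and 9.48 ± 2.77 CPM (SD, n = 3). The log2 fold change was -1.21 ± 0.26, with a 95% interval from -1.81 to -0.60 (edgeR adjusted p = 0.0619), and DESeq2 gave -1.20 (adjusted p = 0.000616). Without vehicle 1 the value was -1.11 and passed the edgeR test (adjusted p = 0.0398), and over all settings tried the adjusted p of Sqle ran from 0.000616 to 0.185. In the authors' deposited table Sqle has a log2 fold change of -1.20 and an adjusted p of 0.000608.

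Fdft1 (chromosome 14, 63145150 to 63179578), the squalene synthase, was at 22.5, 23.2 and 22.3 CPM with vehicle and 17.5, 16.4 and 15.9 CPM with the inhibitor. The vehicles lay close together (SD 0.450 CPM, n = 3) and above every inhibitor library, and the log2 fold change was -0.45 ± 0.12 (edgeR adjusted p = 0.101). Its exons overlap those of Ctsb, the gene of the lysosomal protease cathepsin B on the opposite strand, over 774 bases, and the library chemistry does not mark strand. Ctsb was at 3168, 1398 and 1556 CPM with vehicle and at 651, 702 and 681 CPM with the inhibitor. Reads of the shared stretch cannot be told apart, and the part of Ctsb in the counts of Fdft1 was not tested. Both genes were lower in every inhibitor library than in any vehicle library. In vehicle 1, where Ctsb was highest, Fdft1 lay between the other vehicles at 22.5 CPM. Ctsb was looked up after the overlap was seen.

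Lss, which closes the sterol rings to lanosterol, had the lowest level per length of the 28 genes and a log2 fold change of -0.67 ± 0.23 (edgeR adjusted p = 0.159), or -0.47 without vehicle 1. It was at 9.61, 6.49 and 6.905 CPM with vehicle and 4.03, 4.99 and 5.46 CPM with the inhibitor. Cyp51, the lanosterol demethylase, was at 19.0, 20.8 and 24.3 CPM with vehicle and 12.7, 14.96 and 16.9 CPM with the inhibitor (log2 fold change -0.53 ± 0.17, edgeR adjusted p = 0.134). Both had groups without overlap, with inhibitor 1 lowest and inhibitor 5 nearest to the vehicles. Exons of Cyp51 overlap Akap9 on the opposite strand over 166 bases.

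Msmo1, Nsdhl and Hsd17b7 encode the enzymes that together strip methyl groups from the sterol, and they differed in pattern. Hsd17b7 was at 8.95, 8.70 and 9.67 CPM with vehicle and 6.54, 6.62 and 6.85 CPM with the inhibitor (log2 fold change -0.45 ± 0.16), and Nsdhl had a log2 fold change of -0.25 ± 0.14, both without overlap. Msmo1 was at 18.2, 34.1 and 35.4 CPM with vehicle and 39.1, 32.3 and 27.9 CPM with the inhibitor. Vehicle 1 alone was low, the groups overlapped, and the log2 fold change of 0.18 ± 0.27 over all libraries was -0.07 without vehicle 1. Sc5d, the sterol desaturase, showed the same shape, at 20.0 CPM with vehicle 1, 36.0 and 36.7 CPM in the other vehicles and 34.1, 29.4 and 27.3 CPM with the inhibitor. Its log2 fold change was -0.029 ± 0.24, and -0.26 without vehicle 1 (adjusted p = 0.239).

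Of the late steps, Dhcr7, which reduces the final double bond on the way to cholesterol, stood at 22.2, 16.2 and 18.1 CPM with vehicle and at 10.96, 13.6 and 12.1 CPM with the inhibitor. The lowest vehicle exceeded the highest inhibitor library, and the log2 fold change was -0.63 ± 0.18 (edgeR adjusted p = 0.101; DESeq2 adjusted p = 0.0205). The sterol isomerase gene Ebp and the sterol reductase gene Tm7sf2 had log2 fold changes of -0.040 ± 0.12 and -0.069 ± 0.19 with overlapping groups. Ebp was at 42.2 to 51.2 CPM with vehicle and 44.3 to 49.6 CPM with the inhibitor. Their 95% intervals, -0.33 to 0.25 and -0.52 to 0.38, do not show that these levels are alike in the groups. Exons of Tm7sf2 overlap those of Vps51 on the same strand over 532 bases.

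Stard4, a carrier that moves cholesterol between membranes, was at 17.7, 17.9 and 21.8 CPM with vehicle and 17.8, 17.6 and 18.6 CPM with the inhibitor. Only vehicle 3 stood out, the groups overlapped, and the log2 fold change was -0.089 ± 0.14 (95% interval -0.43 to 0.25, edgeR adjusted p = 0.745).

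**Figure D3:**
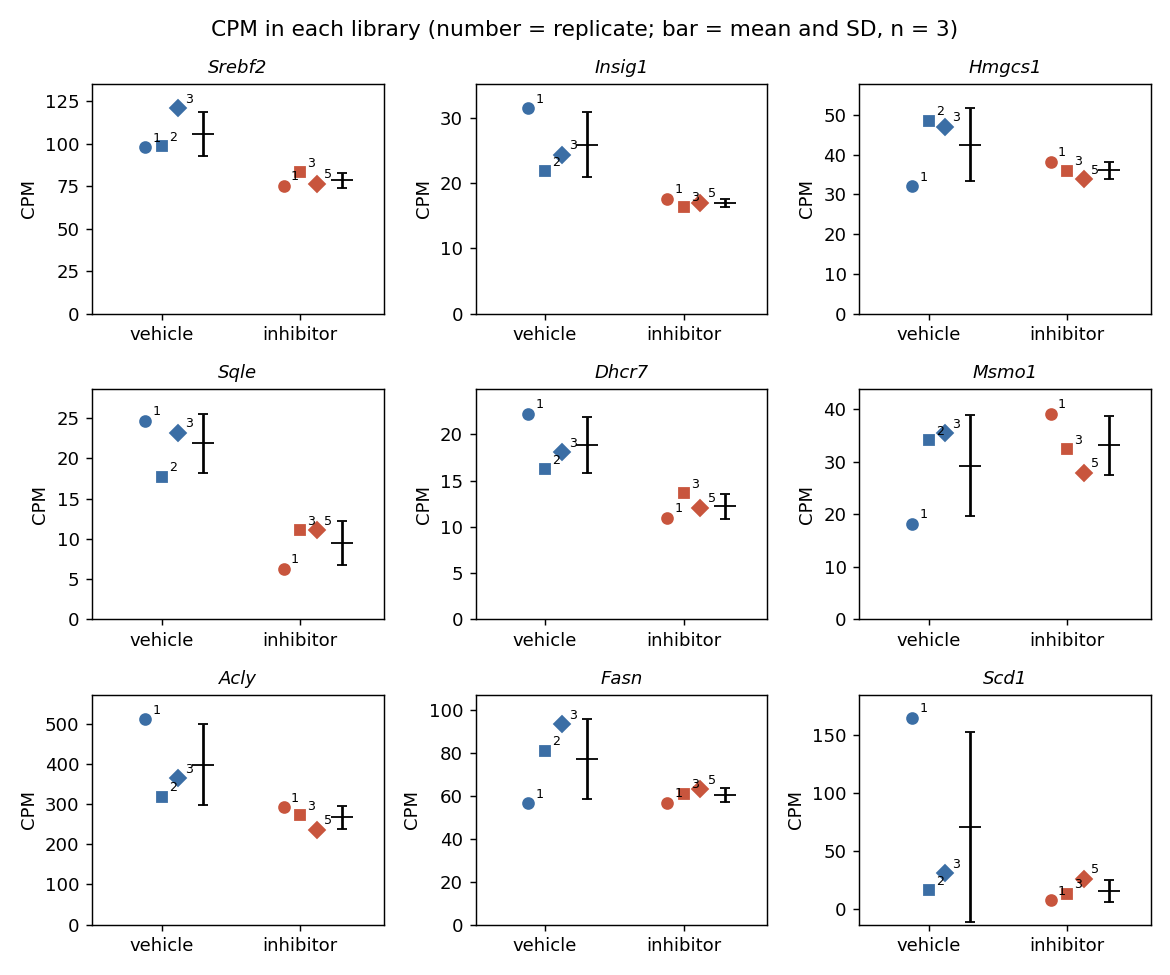
CPM (vertical axes) of 9 of the genes in each library, where the number beside a point is the replicate and the black bar is the mean and SD of the group (n = 3). Srebf2, Insig1, Sqle, Dhcr7 and Acly have groups that do not overlap, while Hmgcs1, Msmo1 and Fasn are lowest in vehicle 1 and Scd1 is far highest there, with an SD bar that runs below 0.

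In the fatty acid arm, Acly and Acaca were lower in every inhibitor library and the desaturases went their own ways. Acly, which splits citrate to supply cytosolic acetyl-CoA to both arms, had the highest level per length of the 28 genes. It was at 511, 319 and 364 CPM with vehicle and 292, 273 and 237 CPM with the inhibitor, a log2 fold change of -0.57 ± 0.20 (edgeR adjusted p = 0.157) and of -0.36 without vehicle 1. Acaca, the acetyl-CoA carboxylase that commits carbon to fatty acid, was at 41.0, 47.4 and 46.3 CPM with vehicle and 36.5, 34.9 and 38.4 CPM with the inhibitor. The groups of Acaca did not overlap, and its log2 fold change was -0.29 ± 0.12 (edgeR adjusted p = 0.200).

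Fasn, the fatty acid synthase, was at 56.6, 81.0 and 93.1 CPM with vehicle and at 56.8, 60.96 and 63.05 CPM with the inhibitor. Vehicle 1 was level with inhibitor 1 and the other vehicles lay above all inhibitor libraries. Its log2 fold change was -0.35 ± 0.19 (edgeR adjusted p = 0.313) over all libraries, and without vehicle 1 it was -0.53 and passed the edgeR test (adjusted p = 0.0306). Without vehicle 3, the highest library, the value of Fasn was -0.19 (adjusted p = 0.595). Elovl6, which lengthens the product of Fasn, was at 16.3, 25.2 and 22.1 CPM with vehicle and 23.8, 18.0 and 24.2 CPM with the inhibitor. Its groups overlapped, and the log2 fold change was 0.053 ± 0.21 over all libraries and -0.10 without vehicle 1.

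Scd1 and Scd2, neighbouring genes on chromosome 19 (44394455 to 44407879 and 44293674 to 44306864), encode related desaturases that put a double bond into saturated fatty acids, and counts of such paralogs are uncertain where reads fit both. Scd1 stood at 165, 16.5 and 31.3 CPM with vehicle and 7.71, 13.4 and 26.4 CPM with the inhibitor. Vehicle 1 was 6.92 times the mean of the other vehicles, and vehicle 2 lay below inhibitor 5. The log2 fold change of -2.16 ± 0.87 (edgeR adjusted p = 0.211), the most negative of the 28, was -0.59 without vehicle 1 (adjusted p = 0.463). Scd2 was at 87.3, 67.6 and 58.04 CPM with vehicle and 70.3, 74.2 and 83.8 CPM with the inhibitor, with overlap and a log2 fold change of 0.10 ± 0.17. Per length, Scd1 made up 68.1%, 21.6% and 37.8% of the sum of both desaturases with vehicle and 11%, 16.9% and 26.2% with the inhibitor. Macrophage markers were also highest in vehicle 1, and the 4 of 6 adipocyte markers in the table summed to 7.46 to 23.0 CPM with vehicle and 11.9 to 31.7 CPM with the inhibitor. These markers differed among themselves. Fabp4 was at 17.65, 6.57 and 4.92 CPM with vehicle and 7.42, 4.84 and 15.3 CPM with the inhibitor, highest in vehicle 1 as Scd1 was. The defining marker Adipoq, highest in inhibitor 5, was at 5.07, 2.15 and 2.36 CPM with vehicle and 5.79, 5.84 and 11.75 CPM with the inhibitor. The part of either cell type in Scd1 was not tested.

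Levels per length (CPM per kilobase of gene length) spread widely within the pathway. In the mean of the vehicles Acly was highest at 89.9 CPM per kilobase, followed by Fdps at 29.9, Ebp at 27.6 and Srebf2 at 23.1, and Lss was lowest at 1.21. The vehicle libraries of Fdps and Ebp overlapped, so their order is not set by these data. Summed over the 18 sterol enzymes, the level was 161, 178 and 181 CPM per kilobase with vehicle and 147, 150 and 145.5 CPM per kilobase with the inhibitor. Summed over the 6 fatty acid genes it was 178.5, 105.4 and 117.5 against 94.1, 91.0 and 89.0 CPM per kilobase. On both sums the groups did not overlap, and Scd1 and Acly made vehicle 1 the highest on the second. Acly alone was at 115.4, 72.0 and 82.2 CPM per kilobase with vehicle and 65.9, 61.6 and 53.5 with the inhibitor. It was the largest part of the second sum in every library, so that sum mainly describes Acly and not the arm.

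**Figure D4:**
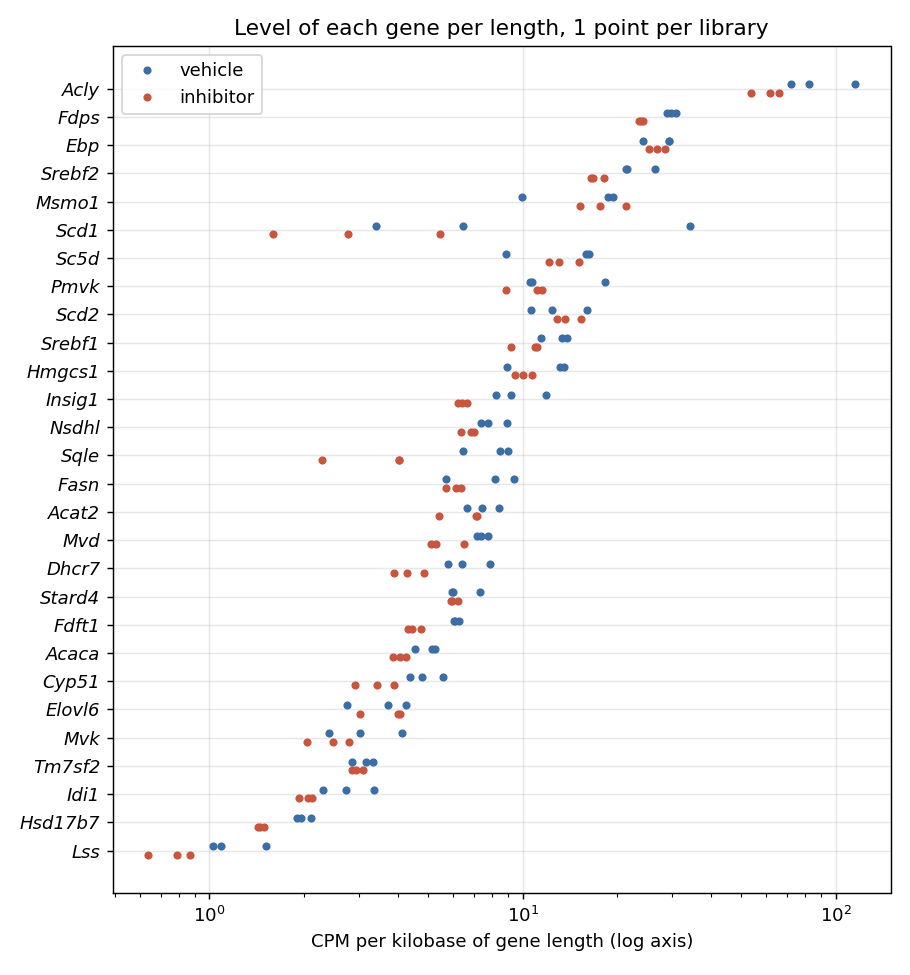
CPM per kilobase of gene length (log axis) of the 28 genes, ordered by the mean of the vehicles, with 1 point per library in blue (vehicle) or red (inhibitor). Acly is highest and Lss lowest, and the points of Scd1 spread most.

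Several differences were smaller when vehicle 1 was left out and others were larger, and leaving out other libraries also moved values. Vehicle 1 was higher than both other vehicles in 11 of the 28 genes and lower than both in 15. The median log2 fold change without it was -0.39 for the sterol arm and -0.36 for the fatty acid arm. Without vehicle 1, 27 of the 28 genes had negative log2 fold changes, all 18 sterol enzymes among them, with Scd2 the exception at 0.28, and 2 were called lower by edgeR, Sqle and Fasn, beside 4.89% of 12946 genes called lower and 3.10% called higher.

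Beside the members, 47 other genes of the pathway were read from lists chosen by role. Of 10 genes for SREBP processing and partner factors 0 passed the edgeR test, with a median of 0.059. Before adjustment (p under 0.05) 0 were higher and 1 lower, beside 9.68% and 11.9% of all tested genes. The 1 lower gene was Mbtps2, a protease that cuts SREBPs in the Golgi, with a log2 fold change of -0.40 ± 0.14 (edgeR adjusted p = 0.152). Scap and Insig2, the homologue of Insig1, had values of 0.18 ± 0.11 and 0.24 ± 0.13, and the NF-Y subunit gene Nfyc one of -0.085 ± 0.12. Both Scap (47.0, 48.2 and 54.4 CPM with vehicle, 55.3, 55.4 and 58.3 CPM with the inhibitor) and Insig2 were higher in every inhibitor library.

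Of the 9 other sterol genes reported here, which are not the whole list, 0 passed the edgeR test. Before adjustment (p under 0.05) 2 were lower and 0 higher, beside 11.9% and 9.68% of all tested genes. Npc1, which exports cholesterol from lysosomes, was at 106.3, 66.8 and 77.7 CPM with vehicle and 57.97, 51.8 and 47.2 CPM with the inhibitor. Its groups did not overlap, and the log2 fold change was -0.68 ± 0.19 (edgeR adjusted p = 0.1002). Tmem97, a partner of Npc1, had a value of -0.40 ± 0.14 without overlap. Npc2, which binds sterol in lysosomes, and Ggps1, which makes geranylgeranyl diphosphate, had values of -0.23 ± 0.13 and 0.22 ± 0.14.

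Among 21 other fatty acid and glycerolipid genes 0 passed, with a median of -0.046. Before adjustment (p under 0.05) 5 were higher and 2 lower, beside 9.68% and 11.9% of all tested genes. Agpat2 and Dgat2, which build phosphatidic acid and triglyceride, had values of 0.82 ± 0.16 (edgeR adjusted p = 0.0559) and 0.60 ± 0.16 (adjusted p = 0.0954), and Acsl1, which activates fatty acids, 0.37 ± 0.12. All 3 were higher in every inhibitor library, opposite in sign to Acly, Acaca and Fasn. The list as a whole was mixed, with 9 positive and 12 negative values. In 5 of the 21 every inhibitor library lay above every vehicle library and in 3 below, beside 14.4% and 16.2% of all tested genes. Mlxipl, which encodes the carbohydrate-sensing factor ChREBP, was at 17.0, 1.80 and 3.33 CPM with vehicle and 0.260, 0.558 and 0.453 CPM with the inhibitor (log2 fold change -4.12 ± 0.93, edgeR adjusted p = 0.0674).

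In the list of 7 genes of the oxysterol receptors LXR and sterol efflux, 1 rose and 2 fell in the edgeR test (median -0.99). Of all tested genes, 0.633% rose and 1.19% fell in that test. LXRs sense oxidised cholesterol and are known to drive Srebf1 and Scd1. Nr1h3, the gene of LXR alpha, fell, with a log2 fold change of -2.08 ± 0.23 (edgeR adjusted p = 0.0240), from 16.8, 10.7 and 12.2 CPM with vehicle to 3.48, 3.01 and 2.86 CPM with the inhibitor. Arl4c fell by 0.99 ± 0.18, the ubiquitin ligase gene Mylip rose by 0.70 ± 0.11, and the efflux pump gene Abca1 had a value of -2.16 ± 0.52 without passing (edgeR adjusted p = 0.0748). Abca1 was at 375.4, 87.5 and 125.8 CPM with vehicle and 39.9, 47.4 and 44.0 CPM with the inhibitor, so vehicle 1 was far above the other vehicles, which still lay above every inhibitor library. Macrophages express Nr1h3 and Abca1, all 12 macrophage markers had negative log2 fold changes (median -2.68), and their part in these values was not tested. The calls of Nr1h3, Arl4c and Mylip need all inhibitor libraries and vehicle 3: with any 1 of these 4 left out edgeR called 0 of all genes, while 1832 to 2398 were at p under 0.05 before adjustment.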

How the data were processed

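Libraries were made with SMART-Seq v4 cDNA and Nextera XT, per the labels' protocols, a chemistry without strand information. STAR, featureCounts and mm10 are named, without versions, in the submitters' processing notes. Raw read counts of 14992 genes in 6 libraries were deposited by the authors. Per the file headers, that table also gives gene length and, for the comparison made by the authors, a ratio, its log2 value, and a raw and an adjusted p-value, from a test that the labels and headers do not name.

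The main test was edgeR's quasi-likelihood F test on treatment (edgeR 4.0.16, R 4.3.3), after filterByExpr, which kept 12806 genes and dropped 2186, and with TMM library sizes, which CPM values also use. The threshold was a Benjamini-Hochberg adjusted p under 0.05, over all genes kept. Standard errors are the absolute log2 fold change over the root of F. Biological variation was 25.2% (edgeR's common coefficient). No libraries were duplicates: the closest pair, vehicles 2 and 3, had a chi-square of 27.3 for each degree of freedom. The fits were tested on counts simulated without an outlying library or a shift in cell types, so that test does not cover these features.

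The members and lists were chosen with earlier results of these data known. All members are named with their values. From each other pathway list the called genes and up to 4 with the smallest p are named. Some genes of the pathway are not reported here, so the list of other sterol genes is not complete and its counts cover only the genes given. Ctsb, the core motif, and library values of members other than Srebf1, Srebf2, Insig1, Stard4, Hmgcs1, Sqle, Fasn, Acaca, Scd1 and Scd2 were chosen after values were seen. Gene coordinates and exon overlaps are from GENCODE M21 (GRCm38, also called mm10). Alternatives were DESeq2 1.42.0 (its size factors in edgeR, and its Wald test), upper-quartile scaling, limma 3.58.1 voom with quality weights, no filter, 5 CPM in at least 3 libraries, an adjusted p under 0.10, a block for the replicate number, and leaving out each library.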

Additional observations from a re-analysis of the deposited data

How the results depend on the processing

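Of the 28 genes, the number called lower was 0 over all libraries in edgeR, 4 with the DESeq2 Wald test, 15 with limma voom and quality weights, 2 at an adjusted p under 0.10, and 0 to 2 with 1 library left out, 2 being without vehicle 1. Calls over all genes went up with them, from 234 in edgeR to 1496 with DESeq2, 2857 with voom, 1056 at an adjusted p under 0.10 and 1034 without vehicle 1. Counts called higher stayed at 0 in every setting. The number lower at an unadjusted p under 0.05 was 13 in the main test. It was 5 to 16 with 1 library left out (16 without vehicle 1, 8 without inhibitor 1, 5 without inhibitor 3). Over all genes and both directions, 2764 were at that p in the main test. That count was 3439 without vehicle 1, 2174 without inhibitor 1 and 1832 without inhibitor 3. The median of the sterol arm was -0.404 with voom, and that of the fatty acid arm ran from -0.357 to -0.232 with 1 library left out, the latter without vehicle 3; the other settings moved the arm medians by less than the spread between replicates. With the replicate block that numbers 1 and 3 allow, 2 genes were lower at an unadjusted p under 0.05 and 0 passed. Of all 12806 genes, 1438 were at that p in either direction, and 7 were called against 234. Same-numbered libraries did not deviate together (r across genes of -0.442 for number 1 and -0.0504 for number 3). These r values are from deviations within groups of 3 libraries, so they cannot show whether same-numbered libraries share a batch.

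Signs turned for 7 genes, among them Pmvk, at -0.33 over all libraries in edgeR. With voom Pmvk was 0.00200, Msmo1 -0.0697 and Elovl6 -0.234, and with the replicate block Ebp was 0.0111 and Sc5d 0.226. With 1 library left out Msmo1 ran from -0.0714 to 0.339, Ebp from -0.127 to 0.00583, Sc5d from -0.264 to 0.115, Stard4 from -0.144 to 0.015, Elovl6 from -0.102 to 0.195 and Scd2 from -0.0249 to 0.277. The causes were not tested. The other genes kept their sign in all settings. Mvk and Tm7sf2, the lowest in counts, dropped out under the filter of 5 CPM.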
